A study of Mus musculus with 6 samples.

Results

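The genes described here protect cells from oxidants and bind metals. They fall into glutathione synthesis and recycling, the thioredoxin and peroxiredoxin system, the removal of superoxide and peroxide, the NRF2 axis, and metallothioneins with ferritin. The list holds 36 genes, and a gene's probe sets were taken when the array annotation gave that gene as their only symbol. By this rule 32 genes were measured, on 71 of the 34945 probe sets with 1 symbol, out of 18193 genes in all. Prdx1 and Ftl1 have only probe sets annotated to several genes (5 and 3 probe sets), and Prdx5 and Prdx6 have none named here, so these 4 genes were not analysed here.

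Both groups are tracheal epithelium of adult male C57Bl/6 mice. The 48 hpi epithelium was taken 48 h after injury (hpi, hours post injury) by inhaled SO2 at 500 ppm for 4 h, and the control epithelium came from mice without injury. Each group has 3 samples, and each sample is a pool of 4 tracheas, so a value is an average over 4 mice. In both groups the epithelium was released with protease, CD45+ leukocytes were depleted with beads, and the RNA was amplified before hybridization to an Affymetrix mouse array.

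Oxidants are removed in steps. Superoxide dismutases turn superoxide into hydrogen peroxide, and catalase, glutathione peroxidases and peroxiredoxins reduce the peroxide. The peroxidases draw their electrons from glutathione or thioredoxin, which are reduced again by glutathione reductase and the thioredoxin reductases at the cost of NADPH. Many of these genes are known targets of NRF2, a transcription factor that KEAP1 holds back in resting cells and that binds the antioxidant response element (ARE) together with small MAF proteins. Metallothioneins bind zinc and copper and are induced through the metal response element (MRE) by the factor MTF1. The airway epithelium is exposed to inhaled oxidants and relies on these enzymes.

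Sequences of the promoters are shown because the ARE is the element through which NRF2 acts. RefSeq promoters of GRCm38.p6, from 250 bases before to 50 bases after the start, were found for 31 of the 36 genes, with 41 promoters among them, and for 28 of the 32 measured genes. They were searched on both strands for the ARE core TGACNNNGC. It stood in 8 of the 41 promoters (19.5%), against 12.4% of all 32851 promoters of this length. Of the 28 measured genes 7 have it, and their windows follow with the core in capitals, each on the strand of the gene, which is the minus strand for Nfe2l2 and Sesn2 and the plus strand for the others. In Srxn1, Gclm, Txnrd1 and Sod1 the core lies on the opposite strand, so that its reverse complement is printed.
Nfe2l2 (chr2:75704885-75704913): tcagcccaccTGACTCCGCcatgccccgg
Srxn1 (chr2:152105542-152105570): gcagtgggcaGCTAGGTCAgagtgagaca
Gclm (chr3:122245413-122245441): gctcccgggcGCACCGTCAactctcacga
Sesn2 (chr4:132510474-132510502): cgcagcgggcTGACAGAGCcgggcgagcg
Mt2 (chr8:94172529-94172557): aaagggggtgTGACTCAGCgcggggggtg
Txnrd1 (chr10:82859104-82859132): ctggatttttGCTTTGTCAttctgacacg
Sod1 (chr16:90220696-90220724): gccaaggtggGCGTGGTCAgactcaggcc
The core begins 240 bases before the start in Nfe2l2, 134 in Gclm, 92 in Txnrd1, 79 in Mt2, 56 in Sod1 and 36 in Sesn2, and at base 29 after the start in Srxn1. Of these 7 genes, Mt2 and Txnrd1 were called higher at 48 hpi, Sod1 was called lower and the other 4 were not called. Genes with the same core therefore differed in their calls. A match describes letters in these windows, and an ARE outside them was not looked for.

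The metallothionein genes Mt2 and Mt1 are neighbours on the plus strand of chromosome 8, with 5315 bases between the end of Mt2 and the start of Mt1. Their 300-base promoters are shown because they are dense in the MRE core, searched as TGCACNC or TGCGCNC on both strands. At least 1 such core stood in 25.7% of all promoters and in 19.5% of those of the listed genes, and at least 3 stood in 1.97% of all promoters. Among the listed genes Gclm, Mt1 and Mt2 have at least 3. Mt2 has 4, a number reached by 0.517% of all promoters. The MRE cores and, in Mt2, the ARE core are in capitals.
Mt2 (chr8:94172368-94172667): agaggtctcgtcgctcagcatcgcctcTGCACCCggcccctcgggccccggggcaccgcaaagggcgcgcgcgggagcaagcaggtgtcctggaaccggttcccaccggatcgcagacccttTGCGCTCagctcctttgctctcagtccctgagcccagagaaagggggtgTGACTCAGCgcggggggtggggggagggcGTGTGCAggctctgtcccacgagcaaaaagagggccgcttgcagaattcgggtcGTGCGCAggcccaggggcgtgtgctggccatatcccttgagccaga
Mt1 (chr8:94178839-94179138): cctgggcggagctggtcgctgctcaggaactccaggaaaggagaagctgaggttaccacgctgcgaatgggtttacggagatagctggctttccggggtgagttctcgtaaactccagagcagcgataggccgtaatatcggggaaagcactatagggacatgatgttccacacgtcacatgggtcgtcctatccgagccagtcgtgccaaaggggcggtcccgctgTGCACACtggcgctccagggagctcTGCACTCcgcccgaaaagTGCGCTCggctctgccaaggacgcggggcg
In Gclm the first MRE core overlaps the ARE core printed above. The 2 metallothionein windows hold different numbers of cores. For Mt1 the gene start used for the distance, 94178883, falls inside the printed window, which was set by a start further downstream. The counts depend on where the windows lie, and cores outside them were not looked for. The readings of the 2 genes are given further on, and a link to these counts was not tested.

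The values are RMA signals on a log2 scale, so that a difference of 1 is a doubling. Pools of a group correlated at 0.990 to 0.996 at 48 hpi and at 0.992 to 0.996 in control epithelium, against 0.954 to 0.973 between the groups. A level was taken as background when it did not exceed the 95th percentile of 79 probe sets for odorant, vomeronasal and trace amine receptors, which was 4.81 at 48 hpi and 4.94 in control epithelium. Of the 32 measured genes 30 exceeded it in both groups, and Slc7a11 and Sod3 did so in neither. A gene was called when its Benjamini-Hochberg adjusted p from limma, taken over 18193 genes, was below 0.05. With 3 pools against 3, an exact two-sided permutation test of 1 gene cannot go below 0.1 and was not used.

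At 48 hpi 10 of the 32 measured genes (31.3%) were higher and 7 (21.9%) lower, and 15 were not called. Over all genes 19.4% were higher and 17.5% lower. Among the 12272 genes above background in at least 1 group, where all 17 of these calls lie, 27.6% were higher and 23.4% lower. Set against the genes above background, the counts were therefore near the general level. The changes were moderate. The called genes moved by 0.38 to 0.99 on the log2 scale, and 0 of the 32 moved by 1 or more. The median change was 0.12 for the listed genes and -0.02 for all genes, and the median size of a change, whatever its sign, was 0.38 and 0.22 (0.34 for genes above background). In 22 of the 32 genes (68.8%) the pools did not overlap, 14 with all 48 hpi pools above and 8 with all below. Over all genes, those within background included, 50.4% had pools that did not overlap. This share was not taken for the genes above background alone, so whether the listed genes exceed it there was not tested.

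**Figure D1:**
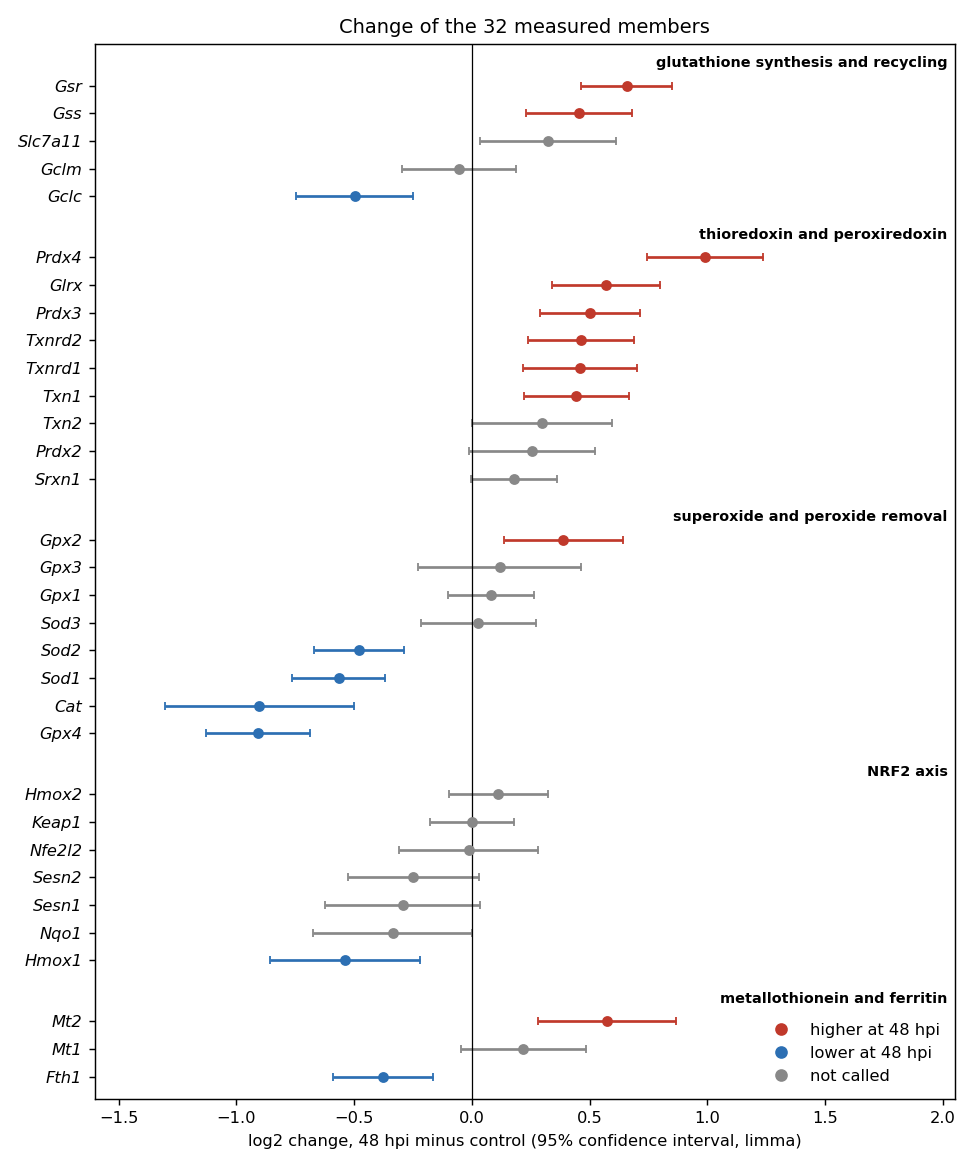
Log2 change (48 hpi minus control epithelium) of the 32 measured genes, grouped by role, with 95% confidence intervals from limma. Points to the right of 0 are higher at 48 hpi. The 10 genes called higher are red, the 7 called lower are blue and the 15 not called are grey. The thioredoxin and peroxiredoxin genes all lie right of 0, and the 4 lower genes among the enzymes that remove superoxide and peroxide lie left of it.

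The counts differed between the roles, a difference that was not tested. Of the 9 measured thioredoxin and peroxiredoxin genes 6 were higher, and of the 8 enzymes that remove superoxide and peroxide 4 were lower and 1, Gpx2, was higher. In glutathione synthesis and recycling 2 of 5 genes were higher and 1 lower. In the NRF2 axis 1 of 7 was lower, and of the 3 metallothionein and ferritin genes 1 was higher and 1 lower. The medians of the log2 change were 0.46 for the thioredoxin group, -0.23 for superoxide and peroxide removal, 0.32 for glutathione, -0.25 for the NRF2 axis and 0.22 for metallothionein and ferritin.

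The thioredoxin and peroxiredoxin group held the gene with the largest rise. Prdx4, the peroxiredoxin of the endoplasmic reticulum, read 10.48, 10.22 and 10.19 in the 48 hpi pools, against 9.22, 9.41 and 9.30 in the control pools. The groups lay far apart, with 10.30 ± 0.16 at 48 hpi and 9.31 ± 0.10 in control epithelium (SD, n = 3 each), a change of 0.99 (SE 0.11, adjusted p = 0.000334). On the linear scale this is 1.99-fold, with a 95% interval from 1.67 to 2.36. Its other 3 probe sets were also called higher, by 0.98, 0.60 and 0.46, although the one at 0.60 lay within background in both groups. Prdx3, the peroxiredoxin of mitochondria, read 9.24, 9.02 and 9.24 at 48 hpi and 8.66, 8.65 and 8.69 in control pools. The control pools were nearly equal, and the change was 0.50 (SE 0.09, adjusted p = 0.00359). Prdx2, the abundant cytosolic form, read 11.41, 11.15 and 10.99 at 48 hpi and 10.91, 10.92 and 10.95 in control pools. Its 48 hpi pools were spread more widely than its control pools, and its change of 0.26 was not called (SE 0.12, adjusted p = 0.125). Without 48 hpi replicate 3 it was 0.35 and was called (adjusted p = 0.0376).

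The cytosolic thioredoxin Txn1 and the thioredoxin reductases Txnrd1 and Txnrd2 were higher. Txn1, the cytosolic thioredoxin that reduces peroxiredoxins, read 12.62, 12.68 and 12.81 at 48 hpi, against 12.15, 12.26 and 12.37 in control pools, and rose by 0.44 (SE 0.10, adjusted p = 0.00806). Txnrd1, the selenoprotein that reduces it with NADPH, read 9.29, 9.19 and 9.53 at 48 hpi and 8.87, 8.84 and 8.93 in control pools, and rose by 0.46 (SE 0.11, adjusted p = 0.01). Neither gene had overlapping pools. Txnrd3, a further thioredoxin reductase that is not in the list of 36, was called lower, with a change of -0.40 (SE 0.13, adjusted p = 0.0468), and is named here after its values were seen. Its call was lost when any array other than 48 hpi replicate 3 was left out (-0.29 to -0.44, adjusted p from 0.0731 to 0.145). The mitochondrial pair was less uniform across probe sets. Txnrd2 read 6.75, 6.90 and 6.98 at 48 hpi and 6.46, 6.47 and 6.32 in control pools, a rise of 0.46 (SE 0.10, adjusted p = 0.00674). Another of its 4 probe sets was called lower, with a change of -0.36, but its group means of 4.08 and 4.44 lay within background, and the other 2 were not called. With the mean of all 4 probe sets the change of Txnrd2 was 0.11 and was not called (adjusted p = 0.29).

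In Txn2, the mitochondrial thioredoxin, the brightest probe set was the one not called. This probe set read 9.17, 8.80 and 8.87 at 48 hpi and 8.84, 8.53 and 8.58 in control pools. The groups overlapped, since 48 hpi replicate 2 lay below control replicate 1, and the change of 0.30 was not called (SE 0.13, adjusted p = 0.111). Its other 2 probe sets were called higher, by 0.48 and 0.53. Glrx, the cytosolic glutaredoxin that removes glutathione from protein thiols, read 6.70, 6.45 and 6.51 at 48 hpi and 6.06, 5.89 and 6.01 in control pools. It rose by 0.57 (SE 0.10, adjusted p = 0.00285), without overlap, and its second probe set had a change of 0.39 that was not called. Srxn1, sulfiredoxin, which repairs overoxidized peroxiredoxins, read 7.00, 7.03 and 7.05 at 48 hpi and 6.89, 6.82 and 6.85 in control pools. Its pools did not overlap, but the change was small at 0.18 and was not called (SE 0.08, adjusted p = 0.118), and the changes of its other 3 probe sets, of both signs, were not called. With arrays at a common median (0.26, adjusted p = 0.0324) and by the methods' t-test (adjusted p = 0.0197) Srxn1 was called higher. That test assumes equal variance and takes the spread of each gene alone, and the study names it for other assays and not for the arrays. limma called 0 of the 9 genes lower. At an unadjusted p below 0.05 the count of lower genes was also 0, and by the methods' t-test it was 0.

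**Figure D2:**
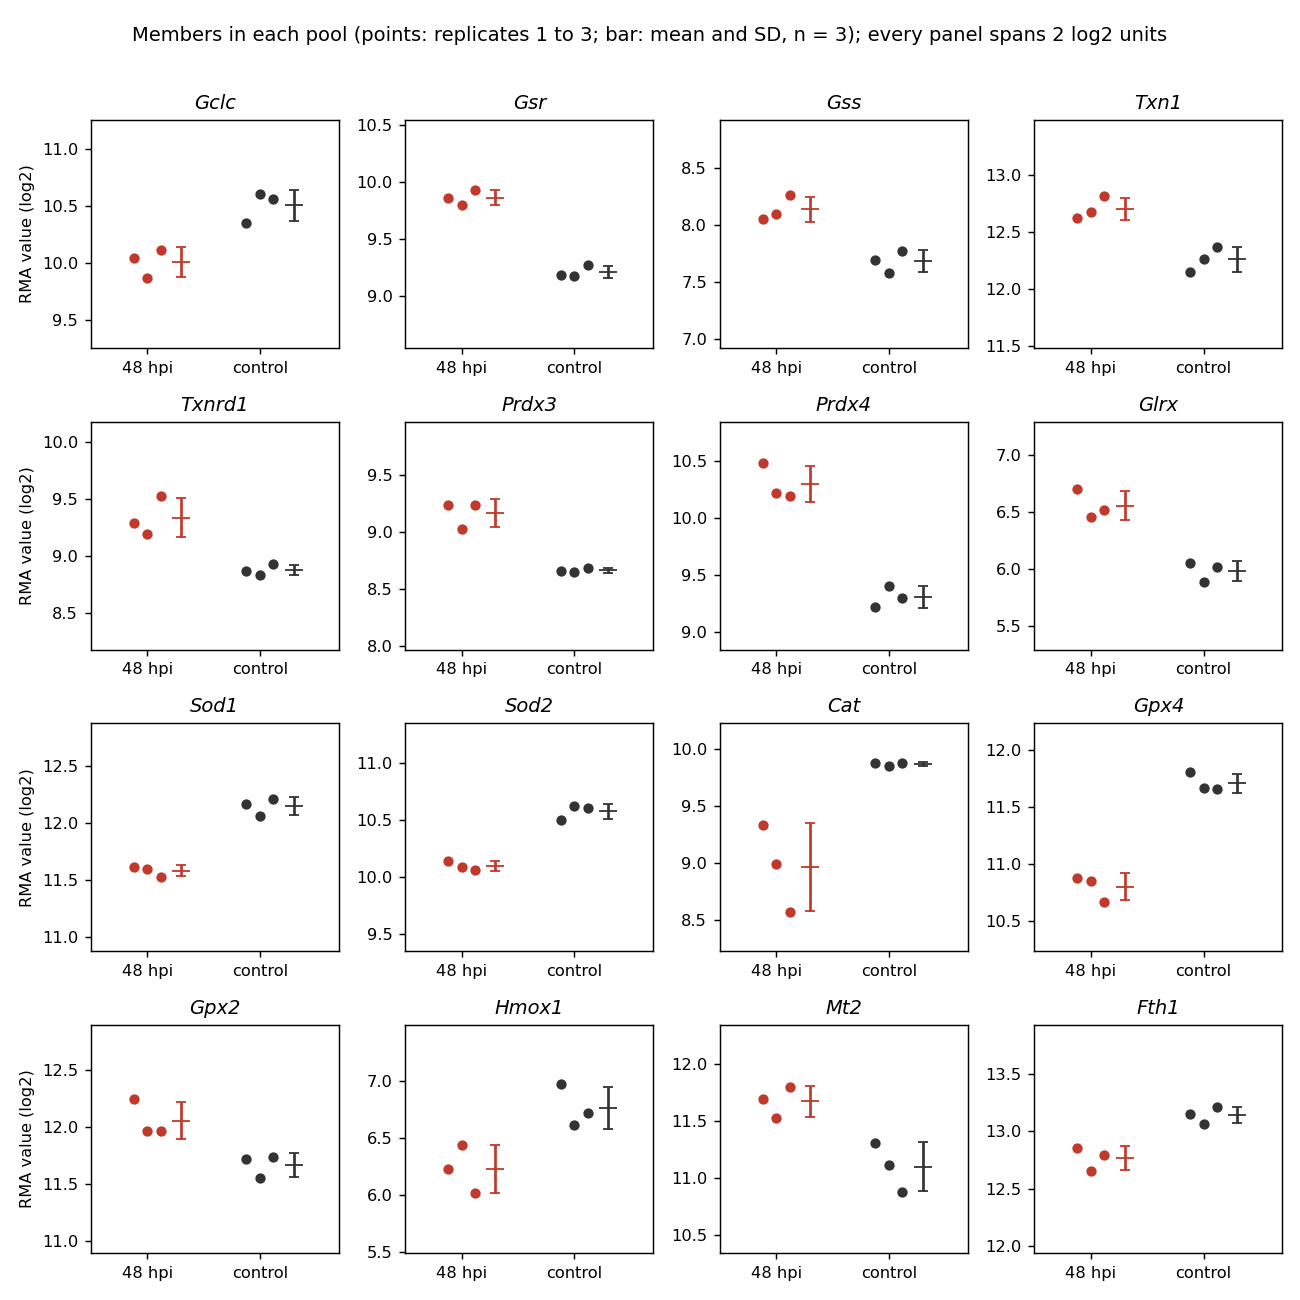
RMA value (log2) of 16 called genes in each pool, 48 hpi in red left of control epithelium in dark grey, with the mean and SD (n = 3) beside the points. Every panel spans 2 log2 units, so distances can be compared between panels. The pools of the groups are apart in each panel, and the 48 hpi pools of Cat are the most spread, from 8.56 to 9.33.

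Glutathione is made in a pair of steps and is then kept reduced. Gsr, glutathione reductase, read 9.86, 9.80 and 9.93 at 48 hpi, against 9.18, 9.17 and 9.27 in control pools. Its groups did not overlap, and it rose by 0.66 (SE 0.08, adjusted p = 0.000686), or 1.58-fold. Gss, glutathione synthetase, which catalyses the second step, read 8.05, 8.10 and 8.26 at 48 hpi and 7.69, 7.58 and 7.77 in control pools, and rose by 0.46 (SE 0.10, adjusted p = 0.00723). The second probe set of each gene was also called higher, at 0.54 for Gsr and 0.31 for Gss.

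For the ligase of the first and rate-limiting step, the RNA of 1 subunit was lower and that of the other was not called. Gclc, the catalytic subunit of glutamate-cysteine ligase, read 10.04, 9.87 and 10.12 at 48 hpi, against 10.35, 10.60 and 10.56 in control pools. It fell by 0.50 on the log2 scale (SE 0.11, adjusted p = 0.0077), with no overlap, and its second probe set fell by 0.67. Gclm, the modifier subunit of the same ligase, read 10.47, 10.19 and 10.25 at 48 hpi and 10.27, 10.33 and 10.46 in control pools. The pools of Gclm overlapped, and the change of -0.05 was not called, with a 95% interval from -0.29 to 0.19. Whether the changes of the subunits differ was not tested. Slc7a11, the transporter that brings in cystine for glutathione, stayed within background in both groups, at 4.05, 3.85 and 4.31 at 48 hpi and 3.71, 3.83 and 3.69 in control pools. Its change of 0.32 was not called (adjusted p = 0.0791), and without 48 hpi replicate 2 it was 0.43 and was called (adjusted p = 0.0311).

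The enzymes that remove superoxide and peroxide held the largest falls. Gpx4, the glutathione peroxidase that reduces lipid peroxides in membranes, read 10.88, 10.85 and 10.66 at 48 hpi, against 11.80, 11.66 and 11.66 in control pools. The groups were well apart, and Gpx4 fell by 0.91 on the log2 scale (SE 0.10, adjusted p = 0.000299), which makes control epithelium 1.88-fold higher. Cat, the peroxisomal catalase, read 9.33, 8.99 and 8.56 at 48 hpi and 9.87, 9.85 and 9.88 in control pools. The 48 hpi pools were spread over a much wider range than the control pools, with SDs of 0.39 and 0.02 (n = 3 each). Cat fell by 0.90 (SE 0.17, adjusted p = 0.00451), and by the methods' t-test it was not called (adjusted p = 0.0553). The second probe sets of Gpx4 and Cat were called lower as well, with changes of -0.73 and -0.82.

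Both intracellular superoxide dismutases were lower. Sod1, the copper-zinc enzyme of the cytosol, read 11.62, 11.60 and 11.53 at 48 hpi and 12.17, 12.06 and 12.21 in control pools. It fell by 0.57 (SE 0.09, adjusted p = 0.00142). Of its 5 probe sets 3 were called lower, with changes of -0.57, -0.60 and -0.81, another had a change of -0.31 that missed the threshold, and the dimmest lay within background. Sod2, the manganese enzyme of mitochondria, read 10.14, 10.09 and 10.06 at 48 hpi and 10.50, 10.62 and 10.61 in control pools, and fell by 0.48 (SE 0.08, adjusted p = 0.00278). Its second bright probe set fell by 0.38, while the changes of the 2 dimmer ones, -0.13 and 0.15, were not called. Sod3, the extracellular form, lay within background in both groups, at 3.95 to 4.18 at 48 hpi and 3.94 to 4.17 in control pools.

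The remaining glutathione peroxidases gave other pictures. Gpx2, an epithelial form known as an NRF2 target, read 12.24, 11.96 and 11.96 at 48 hpi and 11.72, 11.55 and 11.73 in control pools, and rose by 0.39 (SE 0.11, adjusted p = 0.0245). This call was the least firm of the group. It was lost without 48 hpi replicate 1 (0.29, adjusted p = 0.073), without control replicate 2 (0.33, adjusted p = 0.0916) and by the methods' t-test (adjusted p = 0.076). Gpx1, the widely expressed cytosolic form, read 12.41, 12.37 and 12.31 at 48 hpi and 12.29, 12.29 and 12.28 in control pools. Its change was 0.08, with a 95% interval from -0.10 to 0.26, and was not called. Gpx3, the secreted form, lay at 5.44 to 5.85 at 48 hpi and 5.22 to 5.67 in control pools, and its change of 0.12 was not called.

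In the NRF2 axis the regulators themselves were not called. Nfe2l2, which encodes NRF2, read 11.23, 11.13 and 10.86 at 48 hpi, against 11.26, 11.06 and 10.94 in control pools. Keap1, its inhibitor, read 9.05, 9.03 and 9.07 at 48 hpi and 9.03, 9.05 and 9.07 in control pools. The groups overlapped in both genes. The 95% intervals of the change were -0.31 to 0.28 for Nfe2l2 and -0.18 to 0.18 for Keap1, and RNA levels do not measure NRF2 activity, which is set mainly through protein stability.

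Of the targets counted in this axis, 1 was called, and it was lower. Hmox1, heme oxygenase 1, read 6.23, 6.44 and 6.02 at 48 hpi and 6.97, 6.61 and 6.72 in control pools. It fell by 0.54 (SE 0.14, adjusted p = 0.016), and the call was lost without control replicate 1 (-0.44, adjusted p = 0.051) and by the methods' t-test (adjusted p = 0.0843). Nqo1, a quinone reductase, read 6.28, 6.04 and 6.39 at 48 hpi and 6.86, 6.48 and 6.38 in control pools. These pools overlapped, and its change of -0.34 was not called (SE 0.15, adjusted p = 0.113). Hmox2, the constitutive heme oxygenase, had a change of 0.11 that was not called. The sestrins, stress proteins that restrain growth signalling through mTORC1, had changes of -0.29 for Sesn1 and -0.25 for Sesn2, neither called. limma called 0 of the 7 genes higher, and this count was also 0 at an unadjusted p below 0.05 and by the methods' t-test.

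Hmox1 is abundant in macrophages, so their markers were read beside it. Of 12 macrophage markers 2, Csf1r and Lyz2, were called lower, and Adgre1, Ptprc, Itgam, Mrc1, Marco, C1qa and C1qb lay within background in both groups. The summed linear level of the list was 1775 to 7252 at 48 hpi and 14341 to 17343 in control pools. In control pools most of that sum came from Lyz2, which read 13.60 to 13.87 there, against 8.57 to 12.35 at 48 hpi. The median log2 change of the list was -0.04, and Cd68, Cd14 and Fcgr1, above background in both groups, were not called. Lyz2 is also known from airway secretory cells. Red blood cells are rich in Prdx2, Cat and Gpx1. The 6 erythroid markers measured, hemoglobin genes among them, were all within background in both groups, with sums of 93 to 95 at 48 hpi and 93 to 101 in control pools.

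Of the metallothionein and ferritin genes, Mt2 was higher and Fth1 lower. Mt2 read 11.69, 11.53 and 11.80 at 48 hpi, against 11.30, 11.12 and 10.88 in control pools. It rose by 0.57 (SE 0.13, adjusted p = 0.00878), or 1.49-fold, without overlap, and by the methods' t-test it was not called (adjusted p = 0.0588). Mt1 gave opposite readings on its 2 probe sets. The brighter one, an s_at set, whose probes can match more than one transcript, read 11.79, 11.67 and 11.96 at 48 hpi and 11.63, 11.72 and 11.42 in control pools. Its pools overlapped, and the change of 0.22 was not called (SE 0.12, adjusted p = 0.183). The dimmer one read 6.40, 6.01 and 6.17 at 48 hpi and 6.94, 7.34 and 7.46 in control pools, and fell by 1.06 (SE 0.16), without overlap. No direction can be given for Mt1. Mt1 and Mt2 are close paralogs, and whether the brighter probe set also reads Mt2 was not tested.

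Fth1, the ferritin heavy chain that stores iron and is a known NRF2 target, read 12.85, 12.65 and 12.79 at 48 hpi and 13.16, 13.07 and 13.21 in control pools. It fell by 0.38 (SE 0.09, adjusted p = 0.0128), and its second probe set fell by 0.35. The fall was the smallest among the called genes, and the call was lost without control replicate 3 (-0.35, adjusted p = 0.0514).

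**Figure D3:**
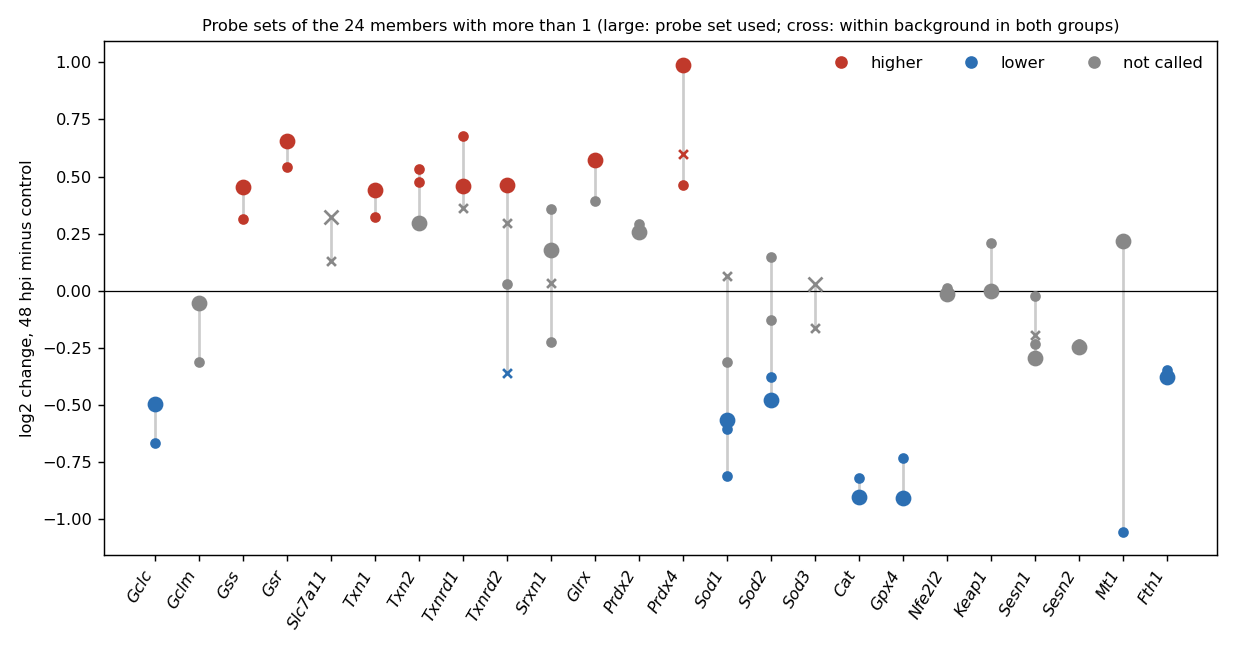
Log2 change (48 hpi minus control epithelium) of each probe set of the 24 genes with more than 1. Large symbols are the probe set used for the gene and crosses lie within background in both groups. Red is higher, blue lower and grey not called. Mt1 spans from -1.06 to 0.22, and Txnrd2 has a higher and a lower probe set, the lower one within background.

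Probe sets of 1 gene mostly moved together. When all 34945 probe sets were tested at once, 19 of the 71 probe sets of the listed genes (26.8%) were higher and 16 (22.5%) lower, against 17.7% and 15.2% of all probe sets. Of the 24 genes with several probe sets, 17 had 1 sign throughout and 17 had the same call throughout. Txnrd2 was the 1 gene with probe sets called in both directions. Probe sets bind with different strength, so levels were compared between the groups and not between genes.

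The split into higher and lower genes depended on how the arrays were scaled. The 18 probe sets for spiked hybridization controls averaged 10.90 to 11.14 on the 48 hpi arrays and 11.15 to 11.68 on the control arrays, and their shift was -0.34 at 48 hpi. When the arrays were shifted so that these controls were equal, the median change of all genes was 0.32, against -0.02 as deposited, and the calls over all genes were 4409 higher and 837 lower. Of the listed genes 13 were then higher and 0 lower, with Slc7a11, Txn2 and Prdx2 gained and all 7 lower calls lost, and at an unadjusted p below 0.05 the counts were 17 and 2. Gpx4 had a change of -0.56 (adjusted p = 0.0502) and Cat of -0.56 (adjusted p = 0.0526). The shift adds the same amount to the change of every gene, so the order of the genes and their distances from the median gene stayed as they were. Each array was shifted by its own amount, and the controls averaged 11.68, 11.15 and 11.23 on the control arrays. The spread between pools therefore changed as well. Gpx4 at -0.56 had an unadjusted limma p of 0.0145, against 0.000155 for Sod1 at -0.57 as deposited. The part of this spread in the lost lower calls was not tested. With arrays at a common median, 12 were higher and 7 lower, with Slc7a11 and Srxn1 gained, against 4238 and 2445 of all genes. Which scaling is right was not tested. The signs of the 17 called genes did not change under either scaling, while those of Nqo1, Sesn1, Sesn2, Gclm and Nfe2l2, none of them called, turned positive with equal hybridization controls.

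**Figure D4:**
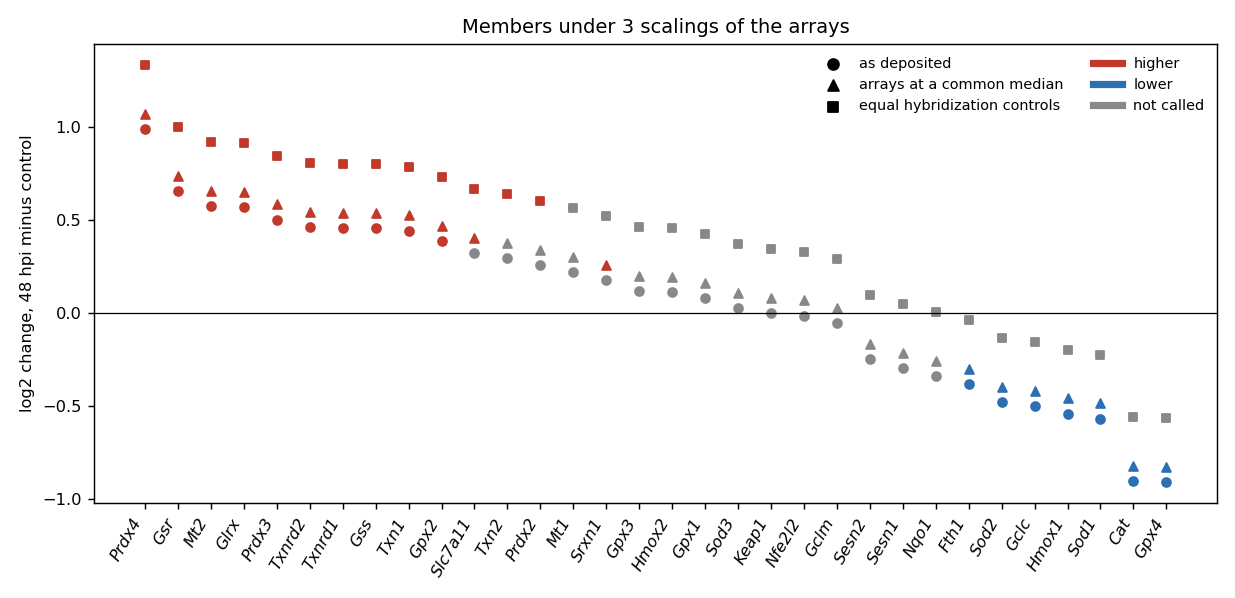
Log2 change (48 hpi minus control epithelium) of the 32 measured genes under 3 scalings, ordered by the deposited value. Circles are the values as deposited, triangles have arrays at a common median and squares have equal hybridization controls. Red is higher, blue lower and grey not called. The squares lie above the circles by the same amount in every gene, and no square is blue.

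Markers of airway cell types differed between the groups and were read beside these results. In a bulk sample, fewer cells of a type and less RNA per cell cannot be told apart. Of 15 ciliated cell markers 12 were called lower, with summed linear levels of 1200 to 2301 at 48 hpi and 2810 to 4439 in control pools. Of 14 secretory cell markers 12 were lower, with sums of 60124 to 104406 at 48 hpi and 149756 to 155017 in control pools. All 11 markers of cycling cells were higher, with sums of 16734 to 20812 at 48 hpi and 2332 to 2658 in control pools. Of 12 basal cell markers 3 were higher and 3 lower, with sums of 22355 to 25200 at 48 hpi and 18476 to 19524 in control pools. With only 2 groups, every gene called lower shares its direction with the lower secretory and ciliated markers. Every gene called higher likewise shares its direction with the cycling markers. This follows from the calls alone and says nothing more about the listed genes. Of 11 fibroblast and cartilage markers 2, Dcn and Chad, were lower, with sums of 628 to 1680 at 48 hpi and 4093 to 5705 in control pools. The other 9 were not called, and the median log2 change of the list was 0.08. Of the 11, 6 exceeded background at 48 hpi and 4 in control epithelium. The 48 hpi pools were not alike. Replicate 3 had the lowest 48 hpi reading in 13 of the 15 ciliated and 13 of the 14 secretory markers, and its secretory sum was 60124, against 102064 and 104406 in the other 48 hpi pools. Of the 7 genes called lower, it also had the lowest 48 hpi reading of Cat, Gpx4, Sod1, Sod2 and Hmox1, but not of the others. Gclc read highest there (10.12), and Fth1 was lowest in replicate 2 (12.65). Prdx4, called higher, and Prdx2, Gpx1 and Nfe2l2, not called, were also lowest in replicate 3. Of the genes called higher, Gss, Gsr, Txn1, Txnrd1, Txnrd2, Prdx3 and Mt2 had their highest 48 hpi reading in replicate 3. For Prdx3 the margin was small (9.242, against 9.239 in replicate 1). Glrx, Prdx4 and Gpx2, also called higher, were highest in replicate 1. Without replicate 3, 11 genes were higher and 7 lower, and the change of Cat was -0.70 (adjusted p = 0.00333). The part of cell make-up in the changes of the listed genes was not tested.

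Other genes of redox and metal biology were counted for context. Of 83 listed genes 79 were measured, 15 were higher, 24 were lower and 40 were not called, with a median change of -0.12. With arrays at a common median the counts were 19 higher and 18 lower, and with equal hybridization controls 19 and 10. Of the 79 genes, 19.0% were higher and 30.4% lower, against 19.4% and 17.5% of all genes. Among all genes above background in at least 1 group, as 69 of the 79 were, 27.6% were higher and 23.4% lower. The 5 largest rises were those of Tfrc, Ggct, Chac2, Sephs2 and Chac1. Of the 16 genes of glutathione uptake, breakdown and use 3 were higher and 5 lower. Ggct, which cleaves gamma-glutamyl amino acids, averaged 7.71 ± 0.27 at 48 hpi and 6.32 ± 0.03 in control epithelium (SD, n = 3 each), a rise of 1.39 (SE 0.14, adjusted p = 0.000209). Chac2 and Chac1, which degrade glutathione itself, averaged 8.37 and 5.45 at 48 hpi, against 7.09 and 4.45 in control epithelium, where Chac1 was within background. They rose by 1.27 (SE 0.12) and 1.01 (SE 0.16). Sephs2, which makes the selenium donor for selenoproteins, averaged 9.47 at 48 hpi and 8.36 in control epithelium, a rise of 1.11 (SE 0.12).

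The 5 largest falls were those of Aox3, Aox1, Selenop, Cp and Bach2. The aldehyde oxidases Aox3 and Aox1, enzymes that release superoxide and hydrogen peroxide as they work, averaged 8.91 and 6.14 at 48 hpi, against 11.58 and 8.78 in control epithelium. Aox3 fell by 2.68 (SE 0.34) and Aox1 fell by 2.63 (SE 0.26). Selenop, the secreted selenium carrier, averaged 9.91 at 48 hpi and 11.98 in control epithelium and fell by 2.07 (SE 0.30). Bach2, a repressor of the family that competes with NRF2 at the ARE, averaged 6.63 at 48 hpi and 8.08 in control epithelium and fell by 1.45 (SE 0.18). Of the 11 NRF2 regulators and related genes 4 were called lower, namely Bach2, Maff, Sqstm1 and Osgin1. Sqstm1, whose protein p62 binds KEAP1, fell by 1.03 and Osgin1, an NRF2 target, fell by 0.84, both singled out after their values were seen. Txnip, which binds thioredoxin and blocks it, fell by 1.35 (SE 0.19) and was likewise singled out, since Txn1 rose.

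Iron genes stood on both sides. Tfrc, the transferrin receptor that takes iron up, averaged 10.30 at 48 hpi and 8.91 in control epithelium and rose by 1.39 (SE 0.11, adjusted p = 7.03e-05). Cp, ceruloplasmin, a copper enzyme that oxidizes iron outside the cell, averaged 10.37 at 48 hpi and 12.08 in control epithelium and fell by 1.71 (SE 0.32). The exporter Slc40a1, chosen after its values were seen, fell by 0.82 (SE 0.13). At the RNA level this uptake gene was higher, and this export gene and the storage gene Fth1 were lower. With equal hybridization controls the change of Fth1 was -0.04 and was not called. Of the 19 genes of metal handling and heme 4 were higher, 6 lower and 9 not called. Among them Aco1 (0.43) was also higher and Ltf (-1.32) lower, and Ireb2, Slc39a14, Ncoa4 and Ftmt were not called. Ftl1 was not analysed, and a common pattern of iron genes was not tested. Of the 8 genes of NADPH supply measured, Tkt (0.61) and Nadk (0.33) were higher and Idh1 (-0.68) and Me1 (-0.39) lower.

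**Figure D5:**
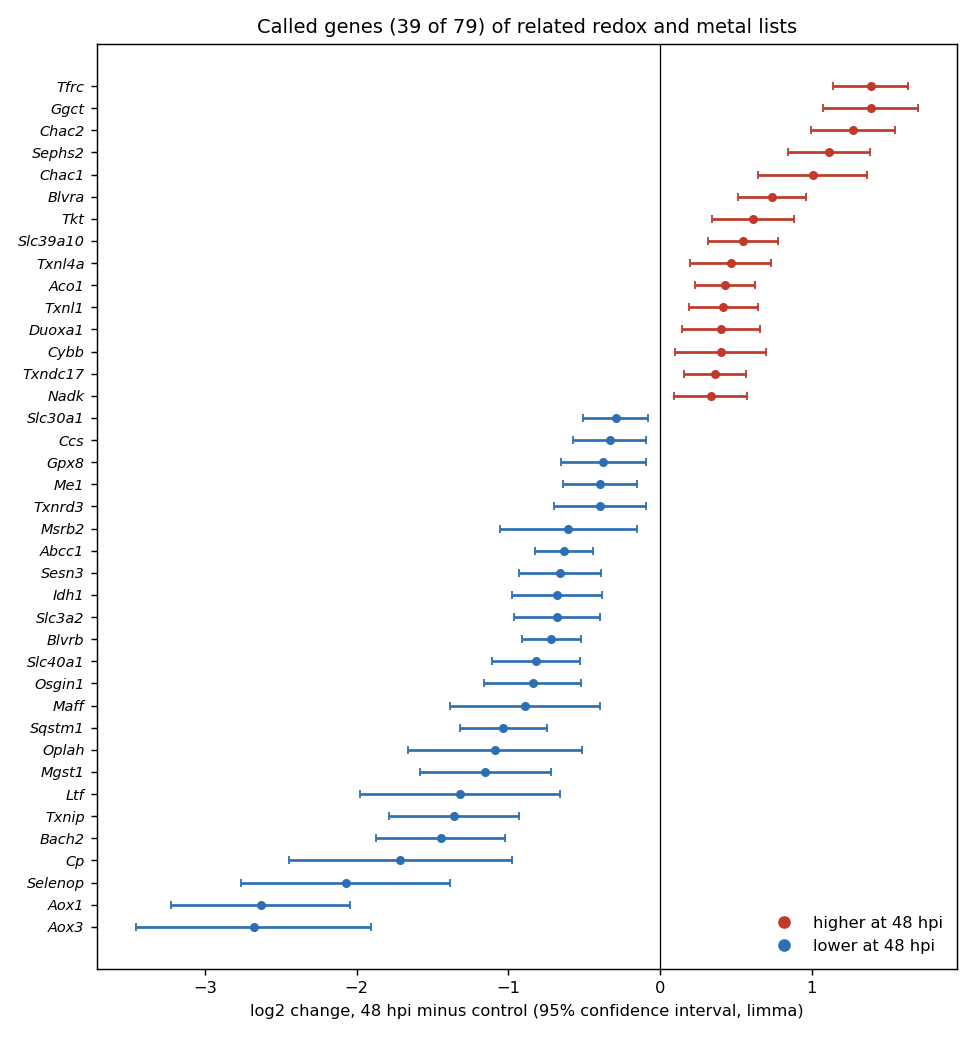
Log2 change (48 hpi minus control epithelium) of the 39 called genes among 79 measured genes of related redox and metal biology, with 95% confidence intervals from limma. Red genes, 15 in number, are higher at 48 hpi, and 24 blue genes are lower. Tfrc and Ggct have the largest rises at 1.39 and Aox3 and Aox1 the largest falls.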

How the data were processed

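Tracheal epithelium at 48 hpi and control epithelium (3 pools of 4 mice each) was compared on Affymetrix Mouse Genome arrays. Values are log2 signals as deposited. The authors normalized them by RMA in Partek 6.5, and the submitters' processing notes also name Affymetrix Expression Console 1.1. They range from 2.01 to 14.6, with array medians of 4.89 to 4.99. No sample columns were left unmapped. Mesenchyme was not used here, and the study's variance model over both tissues was therefore not fitted.

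Of 45101 probe sets, 64 controls, 932 with several symbols and 9160 with none were left out. The brightest probe set over the 6 arrays stood for each of 18193 genes, and the Entrez IDs of all 32 measured genes matched RefSeq (GRCm38.p6). The groups were compared by limma 3.58.1 with its lmFit and eBayes functions (R 4.3.3), without a block, with Benjamini-Hochberg adjustment and a threshold of 0.05. Biological replicates are separate pools, and 3 per group limit the precision. Plots used matplotlib 3.10.9 in Python 3.11.15.

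The genes, lists and markers were chosen with earlier results of these data known. Every measured gene was accounted for. Values per pool were given for at least the 2 genes of smallest p in each subgroup and for genes whose probe sets disagree, and of the related list the 5 called genes with the largest change in each direction were named. Other names were chosen after their values were seen. Tested on simulated data for this comparison (18193 genes, 200 of them changed), it called 26.3% at a log2 change of 0.5, 76.7% at 1 and 100% at 2, with 0 in the wrong direction. The real data hold far more calls, so these shares need not carry over. Alternatives were other priors, the methods' t-test (named by the study for other assays, its arrays having had an analysis of variance), other normalizations and probe set choices, a filter on dim probe sets, array weights, the replicate number as a block, leaving out each array and a threshold of 0.01. None was added later.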

Additional observations from a re-analysis of the deposited data

How the results depend on the processing

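Of the 10 genes called higher 6 kept the call under all 19 alternatives (Gss, Gsr, Txn1, Glrx, Prdx3 and Prdx4), of the 7 called lower 0 did, all being lost with equal hybridization controls, and 9 of the 15 not called were called under none that gave a value. The counts of higher and lower genes were 10 and 7. They were 9 to 11 and 6 to 7 when each array was left out in turn, 9 and 5 by the methods' t-test, 8 and 5 at a threshold of 0.01, and 13 and 0 with equal hybridization controls. By construction that last setting adds the same amount to the change of every gene. It shifts each array by its own amount, so the spread between pools changes as well. Mt1 changed sign with the probe set, to -0.42 with the mean of its probe sets and to -1.06 without x and s probe sets or with the probe set of largest spread. Nxn read -0.37 with the probe set of largest spread, and Slc30a1 and Ccs read 0.052 and 0.012 with equal hybridization controls. For Mt1 and Nxn the cause was not tested. Of the related redox genes, 15 higher and 24 lower, 9 were higher at a threshold of 0.01, 15 were lower by the methods' t-test and 10 were lower with equal hybridization controls. Of all genes, 3191 were lower, and 1920, 837 and 1802 were lower by the methods' t-test, with equal hybridization controls and at 0.01. Sesn1 was called only after repeated quantile normalization (-0.41, adjusted p = 0.0454). With dim probe sets left out, Slc7a11 and Sod3 gave no value. With the replicate number as a replicate block 11 genes were higher and 7 lower, with Txn2 gained. Same-numbered pools deviated together only weakly, with correlations of 0.100, 0.219 and 0.0355, so the numbers were not taken as pairs. The values carry no counts, and signal over background limits Slc7a11 and Sod3.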
